A study of Mus musculus with 2 samples.

Results

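Cycling keratinocytes were taken from 2 droplet single-cell RNA libraries of mouse back skin treated with imiquimod, 1 from wild-type (WT) and 1 from Chrna5 knockout (KO) mice. A barcode counted as a cycling keratinocyte when it held at least 1000 UMIs (unique molecular identifiers, which count captured RNA molecules) and at least 200 genes, with at most 10% mitochondrial UMIs. In addition, Krt5 and Krt14, the keratins of the basal epidermal layer, together had to make up at least 0.5% of its UMIs, and the proliferation genes Mki67 and Top2a together at least 3 UMIs. The rule found 602 of the 25443 deposited barcodes, 498 in the WT and 104 in the KO library. The rule itself uses measured RNA, so the levels of these 4 genes are no finding and they were left out of every list and count below. The comparator, called other keratinocytes, is the 2776 WT and 776 KO barcodes that passed the same filters and the Krt5 and Krt14 rule but held 0 to 2 UMIs of Mki67 and Top2a.

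The mice were female and 6 to 8 weeks old, and 62.5 mg of 5% imiquimod cream was put on the shaved back for 6 days, with the skin taken on day 7. Imiquimod activates Toll-like receptors and gives mouse skin a thickened, inflamed epidermis that is used as a model of psoriasis. The strain label reads C57BL/6. Elsewhere the labels name C57BL/6N, to which the Chrna5 KO line was backcrossed, and once C57BL/6J. Experimental groups held 5 mice, and the labels leave unsaid how many mice went into each library. Skin was digested with collagenase and cells that excluded a dead-cell dye were sorted. The mice that received the cream base alone are not analysed here, so both groups carried imiquimod. With 1 library per genotype, every difference between genotypes is one between these 2 libraries, without a replicate check and without a test. All intervals are 95% intervals that cover counting error only.

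In normal epidermis, keratinocytes divide in the basal layer, where Krt5 and Krt14 are made, and stop dividing as they move up and switch to Krt1 and Krt10. A dividing cell copies its DNA in S phase with the help of the MCM helicase and nucleotide enzymes. It then builds up mitotic cyclins, kinases, kinesins and kinetochore proteins in G2 and M phase, and destroys many of them when it leaves mitosis. In psoriasis-like inflammation the dividing compartment grows, and keratinocytes make antimicrobial proteins, wound keratins and chemokines under the influence of IL-17 and related cytokines.

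After the filters, 11626 WT barcodes (79.9%) and 9605 KO barcodes (88.2%) remained, with a median of 6375 and 6779 UMIs. The libraries shared 49 barcode sequences, of which 0 were cycling keratinocytes. Chrna5, the nicotinic receptor subunit targeted in the KO mice, gave 2 UMIs in WT cycling keratinocytes and 4 in the other WT keratinocytes, and 0 in both KO sets, which is too few to check the genotype labels.

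The cells carried keratinocyte RNA as their label says. After each barcode was thinned at random to 5000 UMIs, Krt17, an epidermal and follicular keratin, was seen in 99.2% of WT and 96.2% of KO cycling keratinocytes. Epcam, an epithelial adhesion gene, was seen in 98.0% and 85.6%, against 10.2% of 49 WT and 8.09% of 136 KO fibroblast-rule barcodes (type I and III collagen genes at 1% of UMIs or more), at the same depth. Krt17 had a higher background, at 36.7% of these WT and 33.8% of these KO fibroblast-rule barcodes. The thinning left out 10 WT cycling keratinocytes. Markers of other cell types were low but not at 0. The 10 fibroblast genes summed to 148 CPM (counts per 1000000 UMIs of the set) in WT and 128 in KO cycling keratinocytes, against 36694 and 40887 in fibroblast-rule barcodes, with Col1a1 at 7.04 and 6.56 CPM. The 12 macrophage genes summed to 70.3 and 71.7 CPM, the 10 neutrophil genes to 9.18 and 13.6, the 10 vascular genes to 14.6 and 8.82, the 10 melanocyte and Schwann genes to 10.1 and 22.9, and the 5 erythroid genes to 5.36 and 2.71. Apart from Epcam, the 9 dendritic and Langerhans genes summed to 137 and 146 CPM. The 12 T cell genes summed to 70.7 and 92.3 CPM, of which Trbc2 made up 82.6% and 74.8%, while the CD3 chain genes Cd3e, Cd3d and Cd3g held 3, 9 and 1 UMIs in WT and 0 in KO. The macrophage and dendritic signal lay in fewer cells in KO. In WT 15.7% of cells held 3 or more UMIs of the macrophage genes and 24.1% of the dendritic genes, and in KO 7.69% for each list. In KO 1 cell held 80% of the UMIs of the macrophage gene C1qa, and 1 held 91.0% of those of the Langerhans gene Cd207, against 24.0% and 63.2% in WT. Whether free RNA or doublets gave the signal of other cell types was not tested.

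Cycling keratinocytes were deep barcodes. Their UMI totals had a lowest value of 1754, a median of 51437 and a highest value of 224105 in WT, and 7034, 36603 and 189689 in KO, against medians of 5975.5 and 16322.5 in other keratinocytes. A rule that asks for 3 UMIs favours deep barcodes, so depth and cycling cannot be told apart in the counts of the rule alone. Median genes per barcode were 5624 in WT and 5180 in KO. The number of Mki67 and Top2a UMIs ran from 3 to 101 in WT and from 3 to 52 in KO with a median of 11 in both, and the median share of Krt5 and Krt14 was 0.924% and 0.874%.

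Values just inside and just outside the rule show where its edges fell. The 57 WT and 22 KO barcodes with exactly 3 UMIs of Mki67 and Top2a held 1830 and 1929 CPM of 87 other G2 and M phase genes, and the 127 WT and 37 KO barcodes with exactly 2 held 1660 and 1972. Barcodes with 20 or more, 127 in WT and 28 in KO, held 7198 and 9080, and barcodes with 0 held 1274 and 1564. Cells at the lower edge of the proliferation rule thus had G2 and M phase levels near those of cells just outside it. At the keratin edge, cycling barcodes with 0.5% to 0.6% of Krt5 and Krt14 (84 in WT, 17 in KO) held 4525 and 3267 CPM of these genes, and those with 0.4% to 0.5% (66 and 36) held 4520 and 4320. The keratin threshold divided the cycling barcodes of the libraries differently: cycling keratinocytes were 73.0% of 682 WT barcodes with 3 or more proliferation UMIs and 32.4% of 321 such KO barcodes. A further 127 WT (18.6%) and 117 KO (36.4%) barcodes lay between 0.25% and 0.5%, and 57 (8.36%) and 100 (31.2%) below 0.25%. Those between 0.25% and 0.5% held 3543 CPM of Krt17 in WT and 2705 in KO, and 1454 and 1611 of Epcam. Below 0.25%, Krt17 was at 1951 and 2267 CPM, Epcam at 790 and 1450, and the immune gene Ptprc at 84.8 and 17.2. The rule thus left out cycling barcodes with keratinocyte RNA in both libraries.

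**Figure D1:**
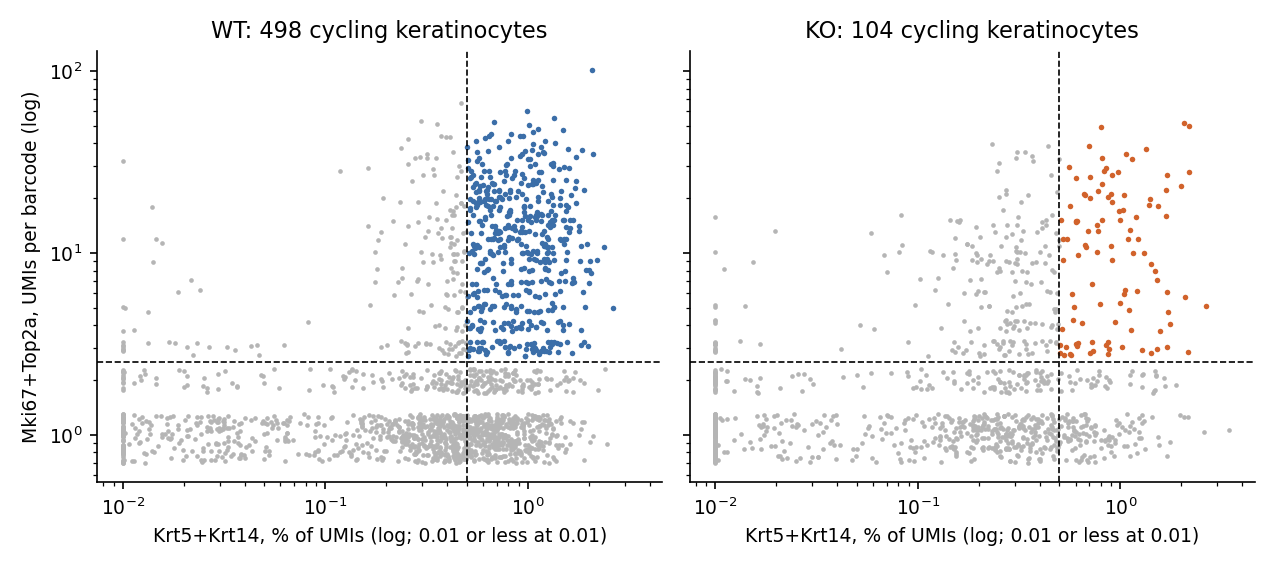
Krt5 and Krt14 as a percent of UMIs (horizontal, log scale) against UMIs of Mki67 and Top2a (vertical, log scale, points spread slightly) for kept barcodes with at least 1 such UMI, WT left and KO right. Dashed lines mark the rule, coloured points are the 498 WT and 104 KO cycling keratinocytes, and in KO more grey than coloured points lie above the horizontal line, most of them between 0.1% and 0.5%.

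Keratinocytes with Krt5 and Krt14 at 0.5% or more were 28.2% of kept WT barcodes (3274) and 9.16% of kept KO barcodes (880). Of these, 15.2% (14.0 to 16.5) cycled in WT and 11.8% (9.76 to 14.1) in KO by exact Clopper-Pearson intervals. Thinning to 5000 UMIs left out 1292 of the WT and 166 of the KO keratinocytes as too shallow. The share with 3 or more proliferation UMIs was then 5.15% (4.22 to 6.21) in WT and 4.48% (3.09 to 6.27) in KO, with overlapping intervals. At 10000 UMIs it was 14.5% (12.8 to 16.3) and 8.56% (6.38 to 11.2), and these intervals did not overlap. That depth left out 1726 of 3274 WT keratinocytes (52.7%) and 319 of 880 KO keratinocytes (36.25%), so the libraries were cut unequally by depth. The share with at least 1 UMI at 5000 UMIs was 21.7% (19.9 to 23.6) and 16.7% (14.0 to 19.6), and at 2000 UMIs 13.1% (11.8 to 14.4) and 7.51% (5.83 to 9.49). The background share with at least 1 UMI at 5000 UMIs was 8.16% of 49 WT and 0 of 136 KO fibroblast-rule barcodes, where a count of 0 allows up to 2.21%. A keratin limit of 0.25% gave shares of 10.6% in WT and 10.3% in KO. The WT share was the higher at each of these settings, but how far above KO it stood moved with depth and with the keratin limit.

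The cycling keratinocytes leaned towards G2 and M phase, and the rule genes themselves peak there, so the rule favours such cells. RNA of 45 S phase genes summed to 1207 CPM in WT and 1233 in KO, a ratio of 1.02 (0.992 to 1.05). RNA of the 87 G2 and M phase genes summed to 5116 and 5875 CPM, a ratio of 1.15 (1.13 to 1.16). This direction depended on the keratin limit: over all 682 WT and 321 KO cycling barcodes, whatever their Krt5 and Krt14, the G2 and M phase sum was 5067 CPM in WT and 4235 in KO, and between 0.25% and 0.5% it was 5033 and 3651. Thinned to 20000 UMIs, the median cell held 22 S phase UMIs (quartiles 15 and 31.5) in WT and 20 (13 and 32) in KO. The G2 and M phase median was 98 (67 and 128) in WT and 110 (52 and 162) in KO, against 23 and 25 in other keratinocytes. The KO cells spread more widely, and the quartiles of the libraries overlapped in both sums. Thinned to 5000 UMIs, 97.7% of WT and 98.1% of KO cycling keratinocytes held more G2 and M than S phase UMIs, but so did 85.5% and 88.5% of other keratinocytes, so this order is no call of phase. Across cells, the Spearman correlation of the sums at 5000 UMIs was 0.36 in WT and 0.57 in KO, a description over cells of the same library.

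**Figure D2:**
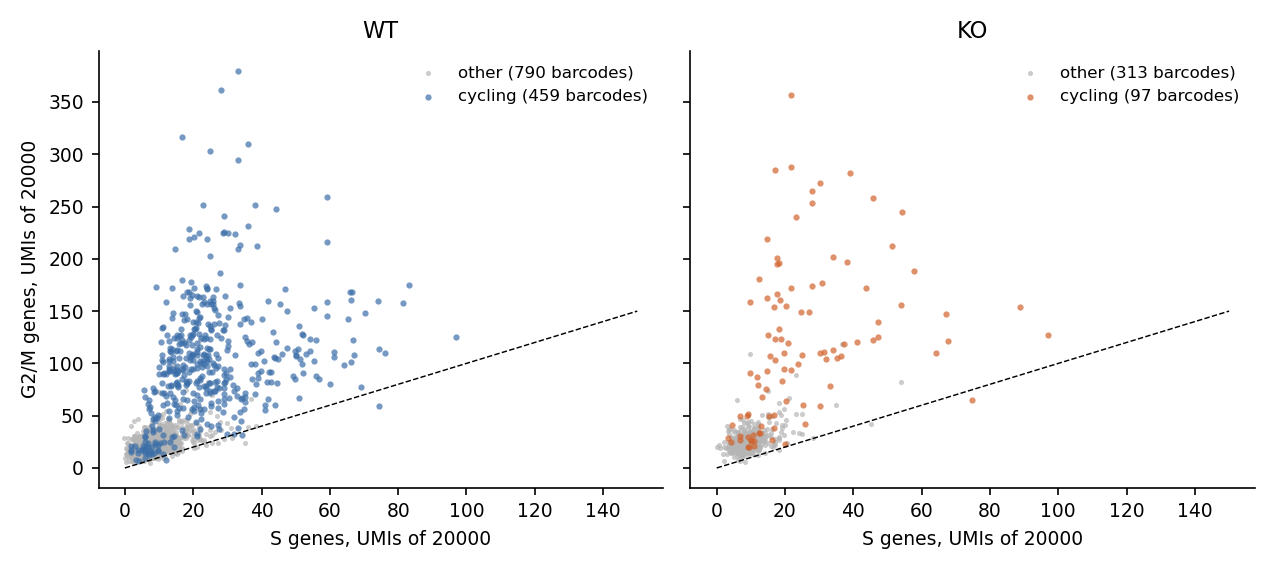
UMIs of 45 S phase genes (horizontal) against 87 G2 and M phase genes (vertical) per barcode thinned to 20000 UMIs, WT left and KO right. Coloured points are cycling keratinocytes (459 WT, 97 KO deep enough), grey points other keratinocytes (790 and 313), and nearly all coloured points lie above the dashed line of equal counts.

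Within each library, cycling keratinocytes were set against other keratinocytes by the ratio of CPM. A gene was counted as higher or lower when the ratio was at least 1.5-fold with an interval leaving out 1, in the same direction in both libraries. By that measure 7.06% of 11671 genes were higher and 6.2% lower, and 40 genes were counted in opposite directions. Since the cells were chosen on proliferation genes, these values describe the set and test nothing.

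S phase genes were moderately higher. Of 20 genes for replication licensing and S phase entry 19 were higher, with a median log2 ratio of 1.29 in WT and 1.34 in KO, against 0.00 and 0.04 over all genes. Mcm5, a helicase subunit, stood at 32.9 CPM in WT cycling and 5.64 in other keratinocytes, and at 29.6 and 2.77 in KO, ratios of 5.84 and 10.7. Cyclin E1, Ccne1, was the exception, at 1.90-fold in WT and 1.09-fold in KO. Of 25 genes for DNA synthesis and nucleotide supply 22 were higher (medians 1.58 and 1.93). Clspn, a checkpoint adaptor at the replication fork, was 14.1-fold and 20.4-fold higher, and Tk1, thymidine kinase, 4.29-fold and 7.46-fold. Pcna, the sliding clamp of DNA polymerases, stood at 78.3 against 63.2 CPM in WT, and 94.1 against 92.3 in KO, ratios of 1.24 and 1.02. All 14 recombination and DNA damage genes measured in both libraries were higher.

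Mitotic genes marked the set most strongly. The 21 mitotic cyclins, kinases and phosphatases were all higher, with medians of 3.30 in WT and 4.33 in KO. Cdk1, the main mitotic kinase, was at 71.2 against 4.07 CPM in WT and at 61.5 against 1.62 in KO, ratios of 17.5 (14.9 to 20.6) and 38.0 (25 to 60.3). Plk1, a polo-like kinase, was at 16.5 against 0.54 CPM and at 17.4 against 0.27. Of 26 spindle and kinesin genes 25 were higher (medians 3.63 and 4.13), the exception being the tubulin gene Tubb4b at 1.32 and 0.89. Prc1, which bundles microtubules between the separating chromosomes, was at 130.0 against 12.3 CPM in WT and 127 against 9.12 in KO. All 27 kinetochore, condensin and cohesion genes were higher (medians 3.34 and 3.71). Birc5, survivin, was at 157 against 12.4 CPM and 142 against 5.94, and Cenpe, a kinetochore motor, at 58.0 against 3.48 and 69.2 against 2.16. Of 12 mitotic exit genes 10 were higher. Ube2c, the ubiquitin enzyme that works with the anaphase-promoting complex, was at 170.1 against 11.5 CPM and 161 against 6.82, while its substrate Pttg1, securin, was 1.05-fold (0.951 to 1.15) and 1.03-fold (0.838 to 1.26), with both intervals including 1.

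Chromatin genes followed. Of 20 chromatin genes 19 were higher (medians 1.34 and 1.6). The linker histone gene Hist1h1b was at 238 against 13.5 CPM in WT and 243 against 6.69 in KO. H2afz, a replication-independent histone, was far more abundant and changed less, at 1769 against 763 and 1702 against 748 CPM. Ezh2, the Polycomb methyltransferase, was 1.26-fold and 1.45-fold higher and missed the limit. Cycle regulators behaved unevenly: of 24 measured, 6 were higher (Cdkn2c, Ccng1, Rbl1, E2f8, Foxm1 and Mybl2) and 1 lower (Cdkn1c). Foxm1, a transcription factor of mitotic genes, was 5.85-fold and 8.63-fold higher at levels of 10.9 and 15.2 CPM. The inhibitor Cdkn1a, p21, was abundant in dividing cells, at 711 CPM in WT and 973 in KO, close to the 802 and 1295 CPM of other keratinocytes.

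Many mitotic genes share promoter elements that are known from textbook work: the CHR (TTTGAA), bound by the DREAM and MuvB complexes, and the CCAAT box (CCAAT). S phase genes often carry E2F sites, searched here as TTCCCGC or TTGGCGC. Each motif was counted on both strands in RefSeq promoter windows of GRCm38.p6, from 250 bases before to 50 after a start. Of the 195 genes on the cycle lists, 151 matched and gave 173 windows. The CHR was in 84.6% of 26 spindle windows, 50% of 16 mitotic kinase windows, 45.8% of 24 kinetochore windows, 27.8% of 18 licensing windows, 4.0% of 25 DNA synthesis windows and 17.9% of all 32851 windows. E2F letters were in 15.4%, 18.8%, 33.3%, 55.6% and 48.0% of these sets in the same order, and in 6.81% of all windows. CCAAT was in 61.5%, 87.5%, 70.8%, 61.1% and 56.0%, and in 37.4% of all windows. A match is a description of letters, not evidence of a site in use, and short motifs may overlap. The 170 bases before the start are printed for 4 mitotic genes and 1 helicase gene that lead the lists, to show the arrangement, with motif letters in capitals and the rest in lower case, read 5′ to 3′ towards the gene. For Prc1 the downstream of 2 annotated starts is shown. The 170 bases before the other Prc1 start hold a CCAAT box and no CHR, and those of Cenpf hold CCAAT boxes and no CHR.

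Cdk1 (chr10:69352913-69353082, minus strand): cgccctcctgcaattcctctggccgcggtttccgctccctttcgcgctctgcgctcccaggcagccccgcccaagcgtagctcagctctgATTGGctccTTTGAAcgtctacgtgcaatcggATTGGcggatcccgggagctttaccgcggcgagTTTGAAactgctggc
Ube2c (chr2:164769759-164769928, plus strand): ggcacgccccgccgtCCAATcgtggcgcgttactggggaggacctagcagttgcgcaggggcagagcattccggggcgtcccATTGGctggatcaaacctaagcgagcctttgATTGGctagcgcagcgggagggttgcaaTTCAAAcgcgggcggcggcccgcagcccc
Prc1 (chr7:80294306-80294475, plus strand): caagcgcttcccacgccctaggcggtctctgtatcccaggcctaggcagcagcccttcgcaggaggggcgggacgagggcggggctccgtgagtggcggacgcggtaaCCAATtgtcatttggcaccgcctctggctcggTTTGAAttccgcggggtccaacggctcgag
Birc5 (chr11:117849067-117849236, plus strand): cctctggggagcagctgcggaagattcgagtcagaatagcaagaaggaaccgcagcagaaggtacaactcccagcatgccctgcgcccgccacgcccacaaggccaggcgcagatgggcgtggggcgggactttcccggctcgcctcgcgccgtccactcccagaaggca
Mcm5 (chr8:75109339-75109508, plus strand): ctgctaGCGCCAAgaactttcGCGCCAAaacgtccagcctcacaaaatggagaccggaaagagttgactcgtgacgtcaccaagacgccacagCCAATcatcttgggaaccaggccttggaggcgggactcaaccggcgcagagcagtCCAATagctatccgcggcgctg

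Cdk1 carries the CHR 71 and 15 bases before the start (counted from the first base of the motif) and inverted CCAAT boxes (ATTGG) at 80 and 48. Ube2c has an inverted CHR (TTCAAA) at 29 and CCAAT boxes of either strand at 155, 88 and 57. Prc1 has a CHR at 30 and a CCAAT box at 62. The Birc5 stretch holds none of the searched letters, although Birc5 was among the genes with the largest ratios. Mcm5 has no CHR here but inverted E2F letters (GCGCCAA) at 164 and 149 and CCAAT boxes at 77 and 22.

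Because cycling barcodes were deeper, they were also set against other keratinocytes of matched UMI totals, 364 WT and 101 KO cells on each side (medians 44988 and 44477.5 in WT, 36375 and 36109 in KO). The mitotic kinase median was then 3.67 in WT and 3.55 in KO, the spindle median 4.07 and 4.23 and the kinetochore median 3.8 and 4.03. With UMI totals matched, the KO mitotic kinase median was thus lower than the 4.33 found against all other keratinocytes, and the other 5 of these medians were higher.

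Differentiation genes were lower in the cycling cells. Of 18 suprabasal genes 8 were lower and 0 higher, with medians of -0.64 in WT and -0.69 in KO (-1.15 and -1.23 at matched depth). Krt1 was at 272 against 1031 CPM in WT and at 540 against 1307 in KO. Krt10 was at 192 against 687 and 297 against 979 CPM. In the 83 WT and 20 KO cells with under 3 UMIs of fibroblast, macrophage, T cell and vascular markers together (cells without other-type markers) the KO ratios of Krt1 and Krt10 were 1.04 and 1.02. An absolute limit of this kind favours shallow barcodes, so this alternative also selects on depth. Krt1 and Krt10 together reached 0.5% of UMIs in 2.05% (0.987 to 3.74) of thinned WT and 5.77% (2.15 to 12.1) of thinned KO cycling keratinocytes, against 7.56% and 8.85% of others, so a few cycling barcodes held suprabasal keratin RNA. The part of doublets and free RNA in this was not tested. Of 18 cornified envelope and barrier genes 11 were lower, with medians of -0.94 and -1.39. Cst6, a cystatin of the upper epidermis and infundibulum, was at 1224 against 4723 CPM in WT and 1894 against 6877 in KO. The protease gene Klk7 was at 105 against 381 and 124 against 325 CPM, and the envelope precursor Sprr1a at 211 against 703 and 169.9 against 708.

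The basal and follicle lists behaved differently from each other. Of 18 basal layer genes 0 were higher and 1 lower, and the medians were -0.05 in WT and 0.08 in KO. At matched depth the medians turned to 0.56 and 0.43. Itga6, a hemidesmosome integrin, was 1.18-fold and 1.25-fold higher, and 1.76-fold and 1.57-fold at matched depth, whereas Krt15 was 0.542-fold and 0.702-fold, and turned to 1.29-fold in WT at matched depth. Of 19 hair follicle genes 10 were lower, with medians of -1.02 and -1.13, which shrank to -0.18 and -0.85 at matched depth. Lgr5, a stem cell receptor of the lower follicle, was at 0.995 against 9.30 CPM in WT and 0.905 against 13.4 in KO. Lhx2, a follicle transcription factor, was at 3.25 against 15.2 and 1.36 against 17.6 CPM, and after thinning 1.02% of WT and 0 of 104 KO cycling keratinocytes held a UMI of it (a count of 0 allows up to 2.88%), against 11.8% and 10.2% of others. Sox9, a follicle factor, was at 288 against 585 CPM and 408 against 890. After thinning, 68.0% of WT and 74.0% of KO cycling keratinocytes held a UMI of Sox9, against 78.8% and 80.3% of others. In fibroblast-rule barcodes it was 12.2% and 8.82%. Krt79 was seen in 26.6% and 34.6% of thinned cycling keratinocytes and in 44.4% and 43.3% of others. It was seen in 32.7% and 27.9% of fibroblast-rule barcodes, so its share of cycling cells did not stand above that background beyond counting error. Its summed level did, at 419 and 642 CPM against 61.5 and 63.6 in fibroblast-rule barcodes. Its median over WT cells was 27.3 CPM and its highest cell 11940.

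Signal-response genes were lower as well. Of 20 immediate-early genes, which respond to growth factors and stress within minutes, 7 were lower and 0 higher (medians -0.86 and -0.56). Fos was at 277 against 822 CPM in WT and 1345 against 2563 in KO. Hspb1, a small heat shock protein, was at 396 against 1533 and 685.5 against 3519, and Cxcl14, a chemokine of resting epidermis, at 71.0 against 311 and 85.5 against 423. Of the 15 genes on the EGFR list 1, the ligand Areg, was higher, at 360 against 222 CPM and 330 against 207, but Areg was 0.589-fold in WT and 0.84-fold in KO among cells without other-type markers, and was 1.12-fold and 1.24-fold at matched depth. Its fellow ligand Hbegf was lower, at 171 against 345 and 309 against 621 CPM. Ribosome biogenesis showed 0 of 19 genes higher or lower. S100a8 was 1.08-fold in WT and 1.66-fold in KO, and turned to 0.654-fold in WT at matched depth.

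**Figure D3:**
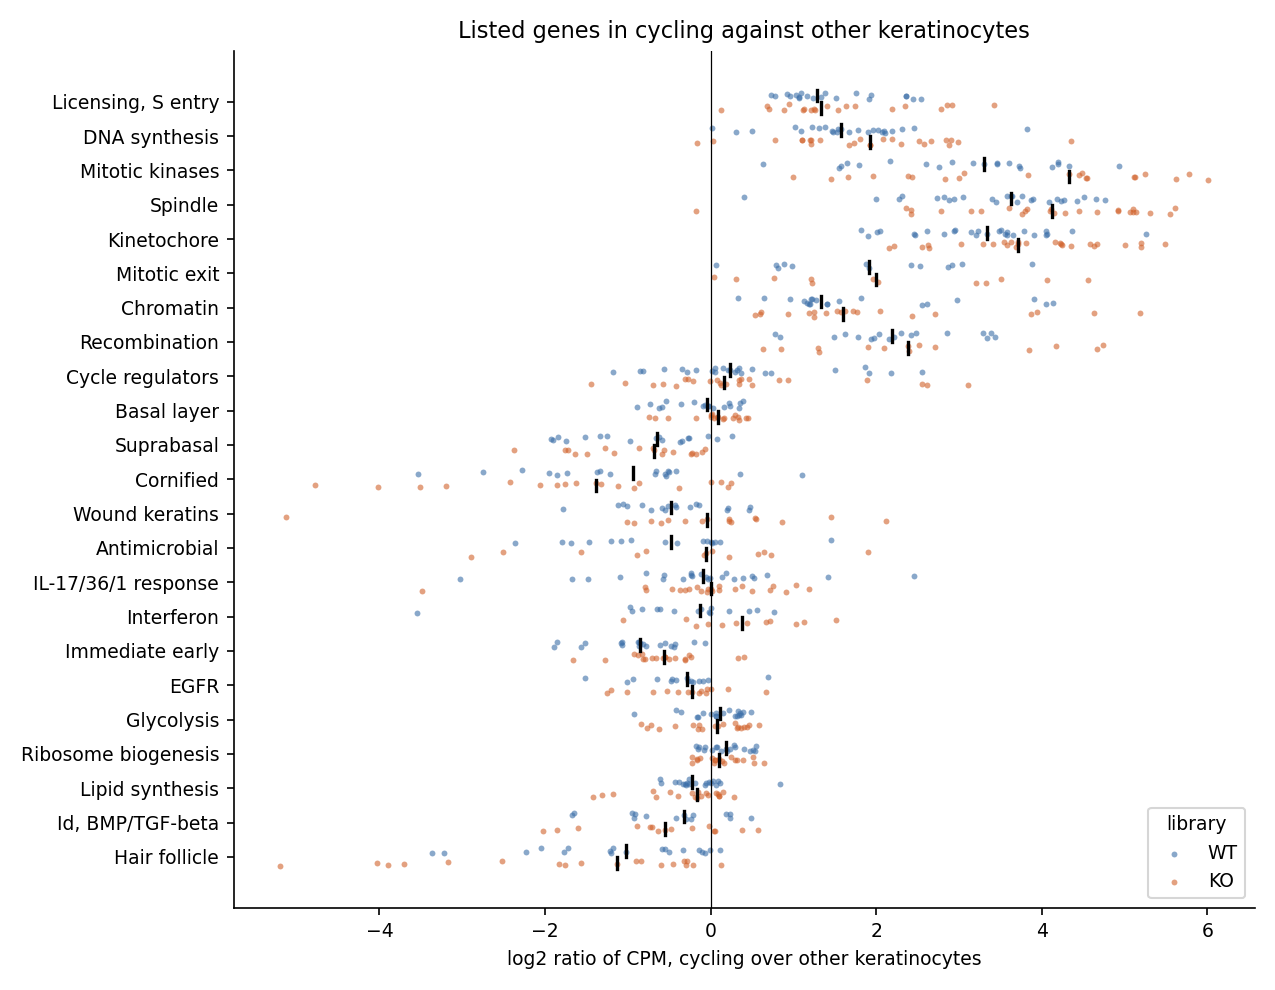
Log2 ratio of CPM in cycling over other keratinocytes for each listed gene with 20 or more UMIs (points, WT blue, KO orange), with the list median as a black bar. Cycle lists sit right of 0, with medians of 1.29 or more in both libraries apart from the cycle regulators, while the suprabasal, cornified and follicle medians sit left of it.

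The genotypes were then compared within the cycling keratinocytes. Of 12218 genes with 20 or more UMIs, 13.2% were at least 1.5-fold higher in KO and 6.34% lower, with intervals leaving out 1. In other keratinocytes 12.5% of 13413 genes were higher and 8.17% lower. Of the 2393 genes counted in cycling keratinocytes, 1262 were counted in the same direction in other keratinocytes and 46 in the opposite one. Some of these 46 rested largely on 1 cycling cell, which held 98.7% of KO Dqx1 UMIs, 90.4% of KO Loxl2 UMIs or 98.2% of WT Myh11 UMIs. Others did not, such as Cenpf, with 7.36% of its KO UMIs in 1 cell. The median log2 ratio over all genes was 0.08, and a median-ratio scale would lower every log2 ratio by 0.10.

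The division machinery itself differed little between the libraries. Of 20 licensing genes 2 were higher in KO and 0 lower, with a median log2 ratio of 0.00, and of 25 DNA synthesis genes 2 were higher and 1 lower (median -0.02). Both medians changed sign under several alternatives. Cdk1 was at 71.2 CPM in WT and 61.5 in KO, Ube2c at 170.1 and 161, and Birc5 at 157 and 142. Of 21 mitotic kinase genes 6 were higher and 0 lower (median 0.20), of 26 spindle genes 5 and 0 (0.28) and of 27 kinetochore genes 2 and 0 (0.19). These 3 medians turned to -0.25, -0.14 and -0.26 when the keratin limit was 0.25% (625 WT and 221 KO cells), so no direction holds for them. They were -0.04, -0.27 and -0.24 without cells carrying other-type markers, a limit that also favours shallow barcodes. In other keratinocytes 12 of 26 kinetochore genes were lower in KO, with a median of -0.67. Those barcodes held a median of 5975.5 UMIs in WT and 16322.5 in KO, and shallow dividing barcodes can fall under the limit of 3 proliferation UMIs. The part of depth in this difference was not tested.

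Some cycle genes stood apart. Cenpf, a large kinetochore protein of G2 and M phase, was at 69.3 CPM in WT and 117 in KO cycling keratinocytes, a ratio of 1.68 (1.52 to 1.86), while in other keratinocytes it was at 5.79 and 3.18. The Cenpf ratio was 1.08 at the 0.25% keratin limit and 0.885 without cells carrying other-type markers. Per cell, the median Cenpf level was 36.3 CPM in WT and 62.2 in KO, with quartiles from 0 to 101 and from 0 to 162, which overlapped. Ccnb1, cyclin B1, was at 44.9 and 78.1 CPM, a ratio of 1.74, and 1.07 at the 0.25% limit. The core histone gene Hist1h2ae was at 127 and 224 CPM and the ubiquitin enzyme gene Ube2s at 430.4 and 664, while Cks1b, a Cdk subunit, was at 176 and 123 and Mcm3 at 37.8 and 26.5, and H2afx, the histone phosphorylated at DNA breaks, at 85.3 and 54.1. At a keratin limit of 2%, which left 8 WT and 6 KO cells, Ube2s, Mcm3 and H2afx changed direction.

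Of 24 measured cycle regulators 9 were higher in KO and 2 lower, with a median of 0.46 (0.29 to 1.38 over the alternatives), and in other keratinocytes 12 were higher and 2 lower. Cdkn2d, the p19 inhibitor of Cdk4 and Cdk6, was at 18.2 CPM in WT and 70.4 in KO, a ratio of 3.87 (3.35 to 4.48), and 3.97 in other keratinocytes. Cdkn1b, p27, was at 36 and 71.5 CPM. Mdm2, which degrades p53, was at 51.0 and 141 CPM, a ratio of 2.76, while Cdkn1a, another p53 target, was at 711 and 973 and stayed under 1.5-fold. Myc, a growth transcription factor, was at 66.4 and 164 CPM. The lower genes were both transcription factors of the cycle, E2f8 at 32.2 and 17.9 CPM and Mybl2 at 11 and 7.01. E2f8 was 2.99-fold higher in KO at the 2% keratin limit.

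The largest differences lay outside the cycle. RNA of antimicrobial proteins was lower in KO dividing cells. Of 16 measured antimicrobial genes 8 were lower and 1 higher, with a median log2 ratio of -1.78 (-4.11 to -1.58 over the alternatives) and -1.50 in other keratinocytes. S100a8, a calcium-binding alarmin (chr3:90668978-90670035), was at 9201 CPM in WT and 1040 in KO, 8.85-fold lower (8.59 to 9.11). Unthinned, a UMI of S100a8 was found in 99.6% of WT and 87.5% of KO cycling keratinocytes, and at 5000 UMIs in 94.7% and 67.3%. In fibroblast-rule barcodes at 5000 UMIs the share was 73.5% in WT and 4.41% in KO, so the background differed between the libraries. Per cell, its quartiles ran from 2979 to 11967 CPM around a median of 6726 in WT and from 70.6 to 1188 around 374 in KO, so the ranges between quartiles did not overlap. Its partner S100a9 was at 7996 and 720 CPM, 11.1-fold lower (10.7 to 11.5), and Lcn2, the iron-scavenging lipocalin, at 719 and 121. Slpi, a protease inhibitor, was at 407 and 107 CPM. S100a8 was also lower outside dividing cells, at 8542 and 625 CPM in other keratinocytes, at 283 and 7.95 in fibroblast-rule barcodes and at 651 and 60.4 in immune-rule barcodes. So was Lcn2, at 691 and 77.8 CPM in other keratinocytes and 330 and 1.59 in fibroblast-rule barcodes. Slpi was at 595 and 91.9 CPM in other keratinocytes and 456 and 45.2 in immune-rule barcodes. Some immune cells, such as neutrophils and monocytes, make S100a8 themselves. S100a8 also moved with the keratin share. Cycling KO barcodes with 0.25% to 0.5% of Krt5 and Krt14 held 95.8 CPM of S100a8, and WT ones 3145.

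Wound keratins split. Of 18 genes on the wound list 9 were lower in KO and 1 higher, with a median of -0.94 (-2.11 to -0.37 over the alternatives). Krt6b was at 180.5 CPM in WT and 14.0 in KO, 12.9-fold lower (10.0 to 16.8), and was found in 51.4% of WT and 8.65% of KO cells. Krt6a was at 1777 and 726 CPM. Krt16 differed less, at 1579 and 1294, and was higher in KO, 1.71-fold, in the 9 WT and 5 KO cells without a UMI of Lhx2 or Sox9. Krt17 was at 2667 and 2610 CPM, a ratio of 0.979 (0.959 to 0.998). Gjb2, connexin 26, was at 96.8 and 25.8. Among 18 cornified genes 10 were lower and 5 higher (median -1.32, but 0.79 in cells without other-type markers). Among the small proline-rich genes, Sprr2d was at 329 and 9.95 CPM, 33.1-fold lower (24.6 to 45.5), Sprr2h at 129 and 4.98 and Sprr2e at 235 and 13.1. Lce3d, a late envelope gene of damaged skin, held 41.0 CPM in WT and 0 UMIs in KO. Against a floor of 3 counts over the KO set it was 60.4-fold lower, a point value and no bound. Only 8.84% of WT cells held a UMI of it. Loricrin, Lor, went the other way, at 3.02 and 43.9 CPM, but 72.7% of its KO UMIs came from 1 cell.

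The cytokine response was mixed in direction. Of 24 genes on the IL-17, IL-36 and IL-1 list 4 were higher in KO and 11 lower, with a median of -0.51, which turned to 0.03 without cells holding Lhx2 or Sox9. The IL-36 genes Il1f6 and Il1f9 were at 32.8 and 107 CPM in WT and 10.2 and 33.7 in KO. Il19 was at 28.6 and 3.85, Il33, an alarmin cytokine, at 125 and 26.0, and Stfa1, a stefin protease inhibitor, at 1378 and 298. Il33 was 1.01-fold in cells without other-type markers. Against these, Cxcl1, a neutrophil chemokine, was at 110.2 and 359 CPM, and Nfkbiz, an IL-17 target that regulates transcription, at 144 and 349. Ccl20, which attracts CCR6 cells, was at 219 and 1224 CPM, but 32% of its KO UMIs lay in 1 cell and its ratio was 0.938 without other-type cells and 0.664 at the 2% keratin limit. Per cell, the Ccl20 median was 0 in WT and 79.1 CPM in KO.

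Of 14 interferon-stimulated genes 6 were higher in KO and 0 lower, with a median of 0.68 (0.13 to 1.07) against -0.10 in other keratinocytes, and 9 of the 14 were under 20% of their level in other cell types, and the part of free RNA in this was not tested. Cxcl10, which attracts T cells, was at 84.3 and 316 CPM, 3.75-fold higher, with 22% of KO UMIs in 1 cell. Irf1, an interferon-induced transcription factor that was not on the list, was at 45.0 and 200.2 CPM. The abundant Ifitm3 was at 1191 and 1315.

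Immediate-early genes were higher in KO dividing cells. Of 20 genes 16 were higher and 0 lower, with a median of 1.24 (1.09 to 2.27 over the alternatives), and in other keratinocytes 13 were higher with a median of 0.97. Egr1, a zinc-finger factor, was at 122 CPM in WT and 958 in KO, a ratio of 7.82 (7.47 to 8.19), and its per-cell quartiles ran from 0 to 80.9 and from 187 to 1425 CPM without overlap. Fos was at 277 and 1345 CPM, a ratio of 4.86 (4.69 to 5.03), with per-cell medians of 106 and 1108. The mitochondrial share of UMIs was higher in KO as well, with a median of 2.65% in WT and 3.19% in KO cycling keratinocytes and 2.19% and 2.90% in others, and its part in these differences was not tested. Jun was at 626 and 1295 CPM, Atf3 at 333 and 1089, and Ier3 at 445 and 1469. The list's summed level was 5175 CPM in WT and 11985 in KO cycling keratinocytes, a ratio of 2.32. In fibroblast-rule barcodes the sum was 13839 and 19206 (1.39), and in immune-rule barcodes 8114 and 10777 (1.33), so it was higher in KO in these as well. Hspa1a, an inducible heat shock gene, was at 86.4 and 589 CPM in cycling keratinocytes and at 674 and 786 in fibroblast-rule barcodes.

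Id genes, inhibitors of differentiation that respond to BMP signals, were higher in KO too. Of 15 genes on their list 9 were higher and 1 lower, with a median of 0.82 (0.45 to 2.47 over the alternatives) and 0.93 in other keratinocytes. Of these 15 genes 7 were under 20% of their level in barcodes of another rule, and the part of free RNA was not tested. Id1 was at 43.4 CPM in WT and 295 in KO, a ratio of 6.80 (6.27 to 7.37), and was found in 46.6% and 76.9% of cells. Id3 was at 147 and 509.7 CPM, with per-cell quartiles from 19.5 to 182 and from 159 to 747 CPM. In fibroblast-rule barcodes Id1 was at 38.9 and 42.1 CPM and in immune-rule barcodes at 17.7 and 17.8, ratios of 1.08 and 1.00. Sostdc1, a BMP and Wnt antagonist, was at 28.9 and 127 CPM, but 0.845-fold at the 2% keratin limit. On the EGFR list 9 of 15 genes were higher and 3 lower (median 0.68, 0.30 to 1.45), and 5 of the 15 were possible free RNA by the same measure. Dusp6, a phosphatase induced by ERK signals, was at 30.9 and 93.0 CPM, and Hbegf at 171 and 309, while Egfr itself was at 85.8 and 57.0.

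Basal and metabolic genes completed the comparison. Of 18 basal genes 5 were higher in KO and 1 lower (median 0.39, -0.07 without cells holding Lhx2 or Sox9). Krt15 was at 57.8 and 134 CPM, the Notch ligand Dll1 at 4.63 and 19.5, and Postn, a matrix protein, at 76.1 and 209, while the integrin Itgb1 was at 355 and 254 and stayed under 1.5-fold. Of 18 suprabasal genes 7 were higher and 4 lower. Krt1 was at 272 and 540 CPM and Krt10 at 192 and 297, both below 20% of their level in barcodes of another rule, such as differentiated keratinocytes, so that free RNA cannot be told apart. Krt10 was 0.903-fold without other-type cells. Grhl3, a transcription factor of epidermal differentiation, was at 124 and 63.6 CPM. Of 20 glycolysis and hypoxia genes 9 were lower and 2 higher, with a median of -0.37 (-0.84 to -0.33) and -0.39 in other keratinocytes. Gapdh was at 1366 and 885 CPM, with per-cell quartiles from 1052 to 1595 and from 633 to 1077, and Aldoa at 356 and 193. Hexokinase 2, Hk2, was at 75.3 and 113. Of 19 ribosome biogenesis genes 0 were higher or lower, with Npm1 at 1973 and 1599 CPM. Of 20 cholesterol and fatty acid genes 6 were lower and 0 higher, with a median of -0.15 that turned to 0.93 at the 2% keratin limit. Without the deepest 10% of cells (448 WT and 93 KO left) 1 was lower and 2 were higher. Thinned to 5000 UMIs 2 were lower and 0 higher, and at the 0.25% keratin limit 7 were lower and 0 higher. The count of lower genes thus moved with the deepest cells and with depth.

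Among genes with at least 50 UMIs and 50 CPM, leaving out unnamed gene models and possible free RNA, the highest lower bound of the ratio was that of Cacna2d2, a calcium channel subunit (chr9:107399612-107529343), at 3.44 CPM in WT and 50.9 in KO, 14.8-fold (11.5 to 19.1), found in 13.1% of WT and 60.6% of KO cells. In other keratinocytes Cacna2d2 was at 1.72 and 19.5 CPM. Zfp36l1, an RNA-binding protein that shortens unstable messages, was at 128 and 619.9 CPM, and Nppb, a natriuretic peptide, at 69.6 and 303. Gmcl1 was at 10.7 and 85.3 CPM with 81.2% of KO UMIs in 1 cell. In the other direction, Gsta4, a glutathione transferase, was at 104 and 10.2 CPM, 10.2-fold lower (7.60 to 14.0), and was found in 55.0% and 25% of cells. Wfdc18 was at 73.9 CPM in WT with 97.6% of its UMIs in 1 cell and at 0 in KO.

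**Figure D4:**
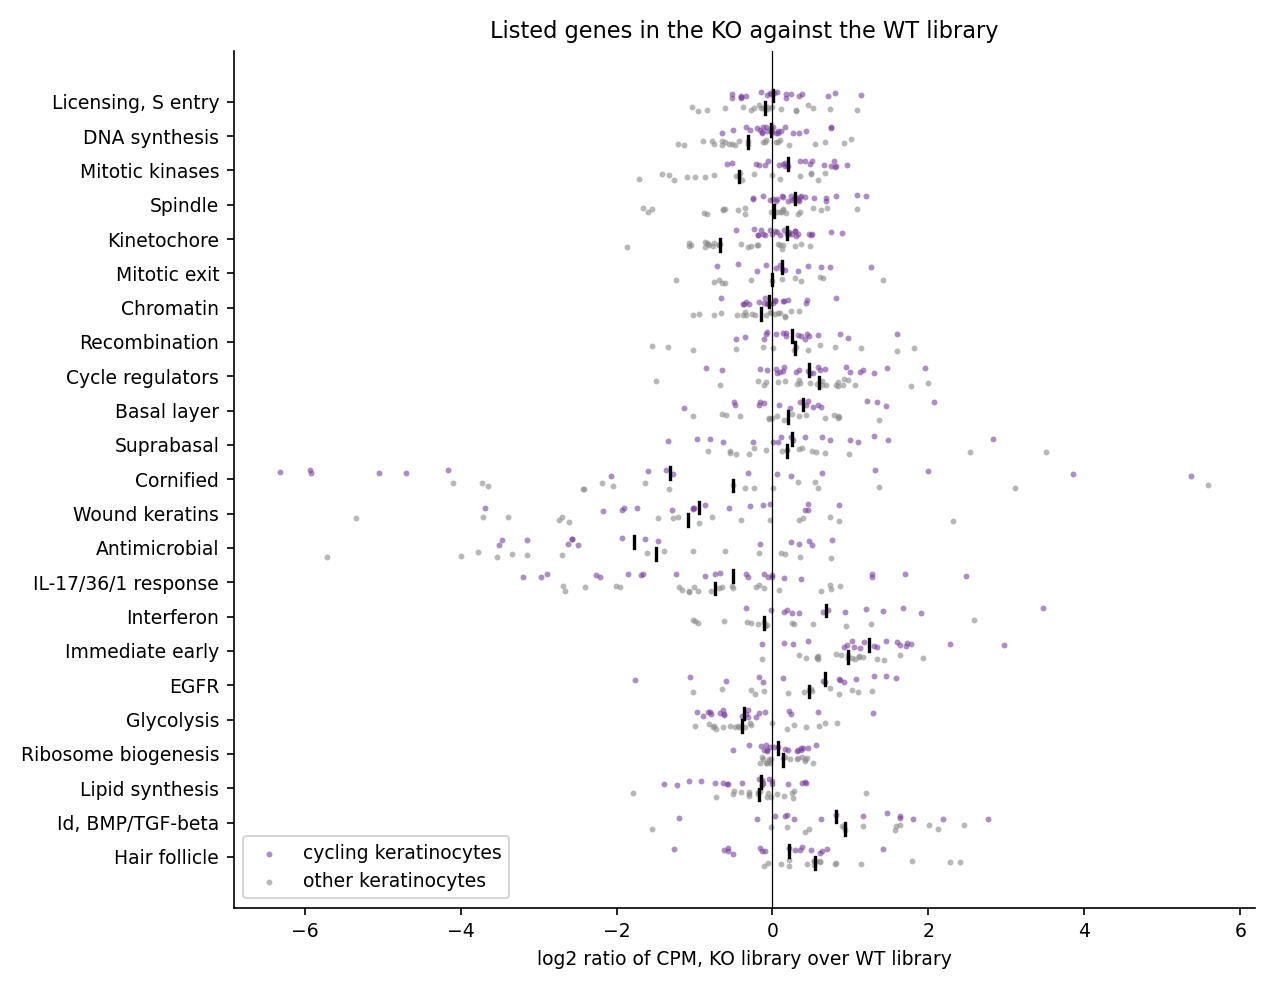
Log2 ratio of CPM in the KO over the WT library for each listed gene with 20 or more UMIs, in cycling (purple) and other (grey) keratinocytes, with list medians as black bars. The S phase, mitotic and chromatin lists stay close to 0 in cycling cells, the antimicrobial median lies at -1.78 and the immediate-early median at 1.24.

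**Figure D5:**
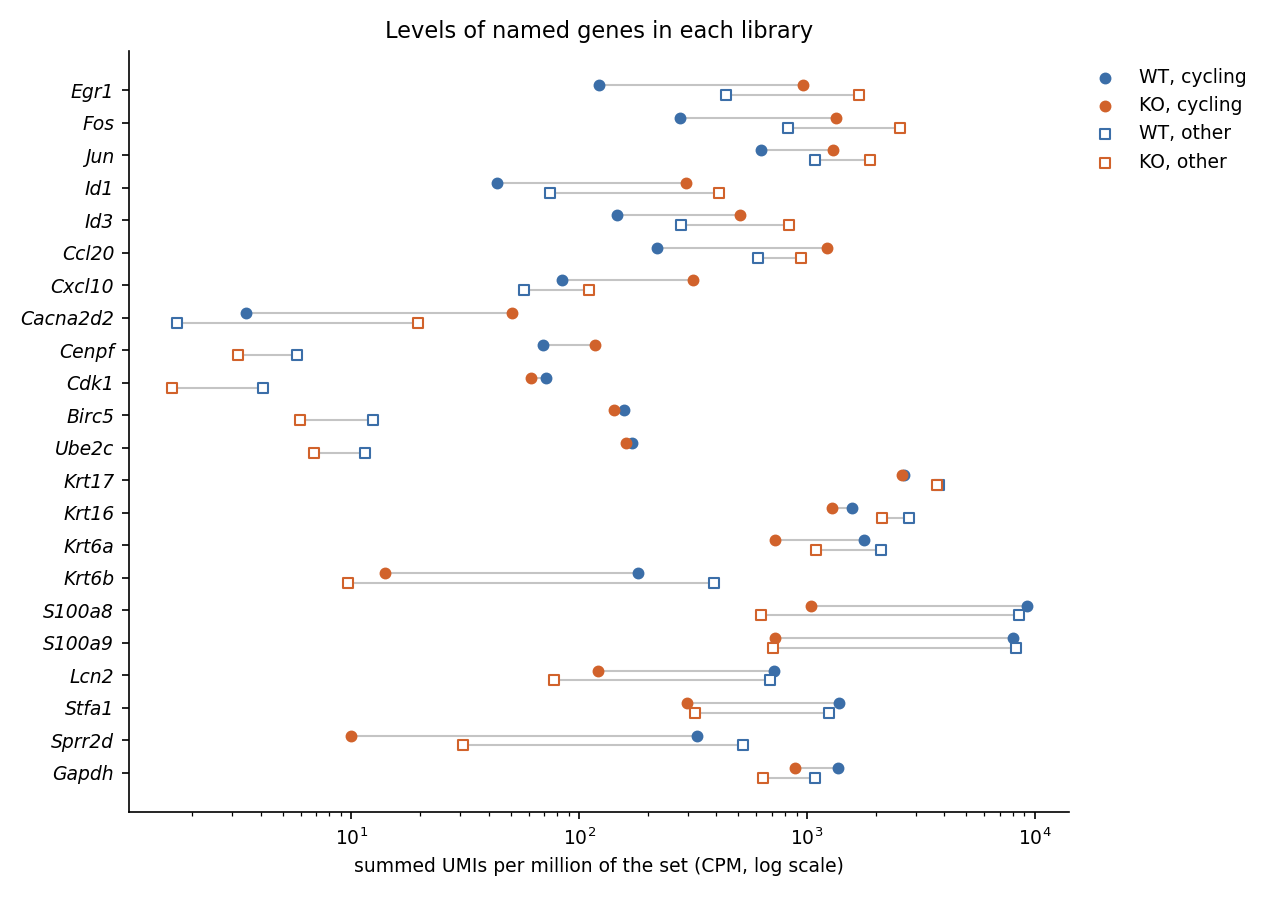
Summed CPM (log scale) of named genes in cycling (filled circles) and other (open squares) keratinocytes, WT blue and KO orange, with a grey line joining the libraries. S100a8 lies at 9201 CPM in WT and 1040 in KO and Egr1 at 122 and 958 in cycling cells, while the filled circles of Krt17, Cdk1, Birc5 and Ube2c lie close together.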

How the data were processed

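The authors deposited whole-number UMI counts for 31053 genes by barcode, without normalization. The submitters' processing notes list Cell Ranger 3.0.2, Seurat 3.0 and the mm10 build, and the matrix header gives software version 3.1.0. The members and gene lists were chosen with earlier results of these data known. UMIs were summed per library and cell set and scaled to CPM with Python 3.11.15, NumPy 2.4.6, SciPy 1.17.1 and pandas 2.3.3. Ratios have exact 95% intervals conditional on the summed count, and a gene at 0 was set against 3 counts. Genes needed 20 UMIs over both sets. Up to 12 genes each way were named by how far the nearer interval bound lay from 1, among genes with 50 UMIs and 50 CPM. Mitochondrial, ribosomal, haemoglobin, receptor-segment, Xist, Tsix, Y-linked and unnamed genes were left out. Possible free RNA (under 20% of the level in fibroblast-rule, immune-rule or differentiated barcodes) was left out as well. List counts kept possible free RNA. In KO against WT it took in 8 of 18 suprabasal, 6 of 18 cornified, 4 of 18 wound list and 3 of 16 antimicrobial genes. On the IL-17, IL-36 and IL-1 list it took in 6 of 24. List members and a few further genes were named after their values were seen. The calculation was tested on simulated counts that held counting error only, as the intervals assume. That test does not cover genes with most of their UMIs in 1 cell. Doublets were not called. An alternative removed cells with 3 or more UMIs of fibroblast, macrophage, T cell and vascular markers together. This absolute limit also favours shallow barcodes. GENCODE gave gene positions.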

Additional observations from a re-analysis of the deposited data

Results flagged for a closer look

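Cenpf, 1 of the 46 genes counted in opposite directions, was higher in KO cycling keratinocytes (ratio 1.68, from 69.3 to 117 CPM) and lower in KO other keratinocytes (from 5.79 to 3.18 CPM). The difference between these ratios was not tested, since there is 1 library per genotype. The other keratinocytes also differed in depth, with a median of 5975.5 UMIs in WT and 16322.5 in KO, and the part of depth was not tested.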

How the results depend on the processing

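With 1 library per genotype nothing can be said about animal-to-animal spread, and no replicate could be left out. No paired analysis was possible because each genotype has 1 library. The cycling share moved with depth and with the keratin limit, and the number of genes counted moved with the cells and UMIs kept. Counts of genes higher in KO (1618) were 696 with cells thinned to 5000 UMIs, 678 at a keratin limit of 2% (8 WT and 6 KO cells), 611 without cells with other-type markers (83 and 20 cells) and 237 without cells holding Lhx2 or Sox9 (9 and 5 cells). Genes lower in KO (775) came to 371, 372, 491 and 228 in the same order and to 1190 at a keratin limit of 0.25%, an alternative chosen after seeing the data. Genes higher or lower in cycling cells of both libraries (824 and 724) came to 467 and 478 without other-type cells. The cycling share in WT and KO was 21.7% and 16.7% at 5000 UMIs with 1 or more proliferation UMIs, 5.15% and 4.48% with 3 or more, 13.1% and 7.51% at 2000 UMIs with 1 or more, 0.974% and 0.469% with 3 or more, 33.1% and 26.0% at 10000 UMIs with 1 or more, and 14.5% and 8.56% with 3 or more. At a keratin limit of 2% it was 32.0% and 28.6%, and at 0.25% the WT share was 10.6%. Unthinned, 98.2% of WT and 95.2% of KO cells held Lhx2 or Sox9, and at 20000 UMIs 99.1% of WT cells had more G2 and M than S phase UMIs. Directions that reversed in KO against WT were, at the 2% limit, Ccl20 (0.664), Sostdc1 (0.845), E2f8 (2.99), Ube2s (0.887), H2afx (1.88) and Mcm3 (2.99). Without other-type cells they were Gmcl1 (0.599), Ccl20 (0.938), Il33 (1.01), Cenpf (0.885) and Krt10 (0.903), and without Lhx2 or Sox9 cells Cenpf (0.950) and Krt16 (1.71). In cycling against other cells, reversals were Krt15 (1.29) and S100a8 (0.654) in WT at matched depth, and without other-type cells Areg (0.589 in WT, 0.840 in KO), Krt1 (1.04) and Krt10 (1.02) in KO. Thinning to 20000 UMIs, the mean of single-cell CPM and leaving out the cell with most UMIs of a gene were also chosen after seeing the data. The cause was not tested.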
